A study of Homo sapiens with 12 samples.

Results

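The S100 family of small calcium-binding proteins was examined in human breast cancer cells grown for 3 days inside synthetic hydrogels. The members were the 10 genes S100A2, S100A4, S100A6, S100A7, S100A8, S100A9, S100A10, S100A11, S100A14 and S100A16, taken from the gene count table by their symbols, out of 23368 distinct gene symbols in the table, which also held 11 other S100 genes. The study asked how breast cancer cells of different subtypes respond to collagen-like and laminin-like cues in a defined 3D matrix. Cells of MDA-MB-231, an estrogen receptor negative basal line from a pleural effusion, or of T47D, an estrogen receptor positive luminal line, were enclosed as single cells in soft poly(ethylene glycol) gels. All gels shared the same cell-degradable crosslinker and carried either GFOGER, a peptide that mimics collagen, or IKVAV, a peptide that mimics laminin. The 4 conditions had 3 libraries for MDA-MB-231 with GFOGER, 2 for MDA-MB-231 with IKVAV, 3 for T47D with GFOGER and 3 for T47D with IKVAV. Another MDA-MB-231 IKVAV sample, which the submitters describe as an outlier and omitted, was not analysed here. Each RNA sample was pooled from 3 gels that had been dissolved with collagenase. Each subtype was represented by 1 cell line, so a difference between the lines cannot be told apart from a difference between subtypes, and no libraries from gels without a peptide or from flat cultures were among the samples. The labels do not say whether replicates came from separate cultures, so p-values measure the spread between these libraries, which may be technical.

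S100 proteins are small, acidic proteins with a pair of EF-hand calcium-binding loops, and most work as dimers that expose a binding surface when calcium rises. S100A10 is the exception, because it has lost calcium binding and forms a stable complex with the membrane-binding protein annexin A2, which at the cell surface brings plasminogen and its activators together. S100A11 binds annexin A1, S100A4 binds the heavy chain of non-muscle myosin IIA (MYH9) and is long known as a metastasis-associated protein, and S100A6 binds the calcyclin-binding protein CACYBP. S100A8 and S100A9 form calprotectin, an abundant protein of neutrophils that is also made by stressed epithelia and signals through the receptors TLR4 and AGER (also called RAGE). S100A2 and S100A7 are proteins of epithelia of the skin and breast, and S100A14 and S100A16 are epithelial members of less defined function.

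The 10 genes lie within 1633 kb of chromosome 1 (chr1:151955386-153588808 in hg19), in the S100 cluster, with 51 other genes of the table between the outermost members. S100A10 and S100A11 form one end, 38.3 kb apart and 1321 kb from the next member, S100A9. The remaining 8 members lie within 258 kb. S100A9 is on the plus strand, and the other 9 are on the minus strand. No member overlapped another gene of the table, so reads of a member could not be shared with a listed gene on the opposite strand.

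For 4 of the 5 members called between the cell lines (S100A2, S100A4, S100A8 and S100A9, with S100A6 not shown) and for S100A11, which led in T47D cells, the 250 bases before the RefSeq start site are printed to show how different these start regions are; they and the motifs were chosen after the values were seen. The RefSeq sequences were each placed by an exact, unique match in GRCh37, the build equivalent to hg19, which succeeded for all 10 members. The windows were chr1:153538321-153538570 for S100A2, chr1:153518283-153518532 for S100A4, chr1:153363665-153363914 for S100A8 and chr1:152009481-152009730 for S100A11, all on the minus strand, and chr1:153330080-153330329 on the plus strand for S100A9. In the GENCODE annotation of this build, the windows of S100A8 and S100A9 lie outside the gene, while those of S100A2, S100A4 and S100A11 lie inside a longer annotated span of the gene that has starts farther upstream. The letters searched on both strands were TATAAA (the TATA box), TGANTCA (the AP-1 motif) and TTNNGCAA (a C/EBP motif), and matches are in capitals.
S100A2: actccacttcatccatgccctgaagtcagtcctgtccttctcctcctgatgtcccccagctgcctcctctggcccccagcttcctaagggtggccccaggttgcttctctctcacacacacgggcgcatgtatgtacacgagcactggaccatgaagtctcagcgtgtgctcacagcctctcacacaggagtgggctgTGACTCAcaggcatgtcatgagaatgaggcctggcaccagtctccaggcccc
S100A4: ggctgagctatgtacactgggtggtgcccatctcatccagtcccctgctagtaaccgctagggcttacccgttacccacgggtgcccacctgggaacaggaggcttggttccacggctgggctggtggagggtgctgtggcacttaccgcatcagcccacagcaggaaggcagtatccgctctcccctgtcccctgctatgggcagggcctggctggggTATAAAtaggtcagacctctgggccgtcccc
S100A8: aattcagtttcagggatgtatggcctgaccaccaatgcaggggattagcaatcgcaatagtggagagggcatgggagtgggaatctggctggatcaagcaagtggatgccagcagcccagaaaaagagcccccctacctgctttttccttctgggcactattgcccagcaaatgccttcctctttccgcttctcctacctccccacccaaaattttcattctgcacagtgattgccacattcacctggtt
S100A9: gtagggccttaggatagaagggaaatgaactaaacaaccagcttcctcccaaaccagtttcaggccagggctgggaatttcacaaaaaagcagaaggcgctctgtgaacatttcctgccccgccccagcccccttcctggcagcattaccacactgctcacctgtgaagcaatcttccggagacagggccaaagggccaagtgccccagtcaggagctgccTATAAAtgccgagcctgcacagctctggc
S100A11: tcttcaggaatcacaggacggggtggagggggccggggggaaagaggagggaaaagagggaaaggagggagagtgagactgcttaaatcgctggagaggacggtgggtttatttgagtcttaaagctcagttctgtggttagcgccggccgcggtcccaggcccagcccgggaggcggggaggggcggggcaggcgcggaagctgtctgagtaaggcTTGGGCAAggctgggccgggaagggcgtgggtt

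The TATAAA letters began 31 bases before the start of S100A4 and 29 bases before that of S100A9, and they were also found in the window of S100A7. The AP-1 letters occurred once, 52 bases before the start of S100A2, and the C/EBP letters once, 33 bases before that of S100A11. None of the 3 motifs was matched in the windows of S100A6, S100A8, S100A10, S100A14 or S100A16. Over 27305 RefSeq promoters the same letters were found in 11.1% (TATAAA), 6.6% (AP-1) and 9.13% (C/EBP) of windows of this length. The content of CpG dinucleotides separated the family further. S100A6 and S100A10 had 24 in the window and S100A11 had 15, against a median of 11 over all promoters, while S100A4 had 7, S100A2, S100A9 and S100A14 had 4, S100A8 had 2 and S100A7 and S100A16 had 1. The RefSeq start sites of S100A6 and S100A10 lie 250 and 379 bases inside the gene span used for counting, so their windows lie within that span. The motif matches are a description of letters and were not tested against expression.

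The libraries held 14338247 to 18452148 reads counted on genes, so that 3 reads, the most that a count of 0 leaves possible at 95% confidence, correspond to 0.163 to 0.209 cpm, the unit of counts normalized to library size. Marker genes followed the labels. ESR1, the estrogen receptor, was at 0.519 to 0.797 cpm in MDA-MB-231 and 257 to 317 cpm in T47D libraries, VIM (vimentin) was at 1435 to 2418 against 3.72 to 5.29 cpm, and CDH1 (E-cadherin) was at 2.29 to 5.51 against 997 to 1050 cpm. All 9 luminal markers were lower in MDA-MB-231 than in T47D, led by FOXA1, PGR and ESR1, and 7 of 8 mesenchymal markers were higher, led by CAV1, MSN and ZEB1. One T47D library, IKVAV replicate 3, stood nearer to the mean of the 3 GFOGER libraries (root mean square log2 difference over genes 0.34) than to that of the other 2 IKVAV libraries (0.41). A mean of fewer libraries is noisier, which by itself raises the second value. Library totals implied by the deposited RPKM values fell into 2 sets, one at 5191201 to 5774966 and the other at 19898878 to 22840524. The lower set held the 3 T47D GFOGER libraries, T47D IKVAV replicate 3 and MDA-MB-231 IKVAV replicate 1. The part of these sets in the results was not tested beyond a fit with the set as a term. Within a line that fit compares GFOGER with 1 IKVAV library, replicate 2 in MDA-MB-231 and replicate 3 in T47D. It therefore cannot separate the set from those libraries. T47D peptide results are also given without IKVAV replicate 3 for S100A6, S100A8, S100A9, S100A10, S100A11, S100A16 and S100P. Without that library the sets divide the T47D libraries as the peptides do, so peptide and set cannot be told apart there. The results for S100A4, the other named genes and the interaction include that library, except in ranges over left-out libraries.

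**Figure D1:**
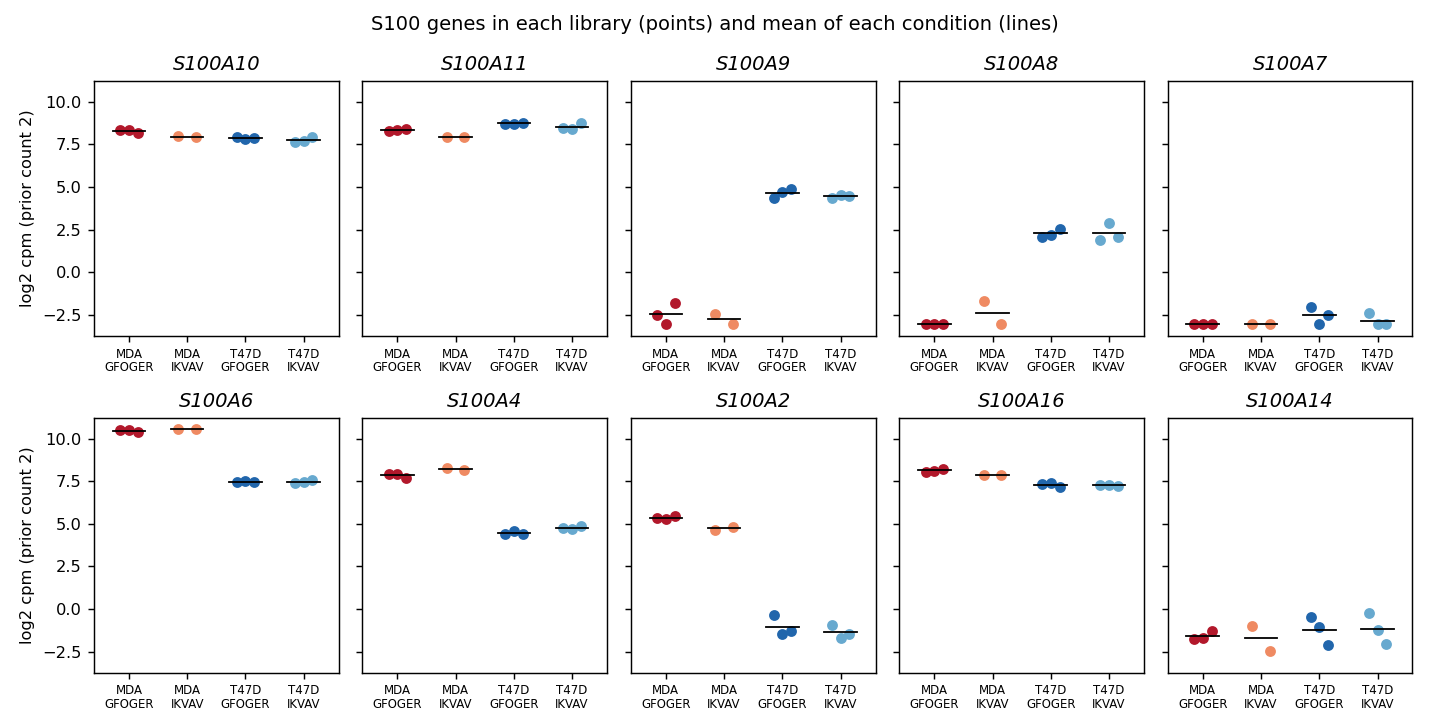
Log2 cpm (prior count 2) of the 10 S100 genes in each of 11 libraries, with 1 panel a gene, 1 point a library and a line at the mean of each condition (MDA stands for MDA-MB-231). S100A2, S100A4 and S100A6 sit higher in MDA-MB-231 libraries, and S100A8 and S100A9 sit higher in T47D libraries. In the panels of S100A2, S100A7, S100A8, S100A9 and S100A14 the lowest points are libraries with 0 to a few reads.

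The order of the members differed between the lines when levels were set per kilobase of the table's gene length (cpm per kb, a level). In MDA-MB-231 with GFOGER, S100A6 stood at 2067 ± 98.0 (SD, n = 3), rank 3 of all genes in the table, followed by S100A11 at 550.5 ± 26.7, S100A4 at 407 ± 34.4, S100A10 at 296 ± 19.8, S100A16 at 262 ± 18.7 and S100A2 at 42.5 ± 3.42. The ranges of S100A10 and S100A16 overlapped there, and those of the other neighbours did not. With IKVAV, S100A4 at 532 ± 25.3 (n = 2) stood above S100A11 at 411 ± 3.79, and S100A6 at 2177 ± 2.58 was again rank 3. In T47D with GFOGER, S100A11 led at 715 ± 15.0 (n = 3, rank 28), followed by S100A6 at 259 ± 6.0, S100A10 at 222 ± 8.58, S100A16 at 146 ± 10.2, S100A9 at 43.5 ± 7.66, S100A4 at 38.9 ± 2.61 and S100A8 at 9.18 ± 1.70. The ranges of S100A9 and S100A4 overlapped there but not with IKVAV, where S100A4 was at 48.2 ± 2.86 and S100A9 at 38.0 ± 2.58. S100A7 and S100A14 stood below 1 cpm per kb in every library of both lines.

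The members together took 0.25% ± 0.00889 (SD, n = 3) of all gene reads in MDA-MB-231 with GFOGER and 0.249% ± 0.00283 (n = 2) with IKVAV, against 0.107% ± 0.000577 (n = 3) and 0.0995% ± 0.00647 (n = 3) in T47D. Within these reads, S100A6 held 54.2% ± 1.17 and 58.6% ± 0.566 in MDA-MB-231 with GFOGER and IKVAV, and 16.9% ± 0.351 and 18.1% ± 0.85 in T47D. S100A11 held 12.6% ± 0.889 and 9.61% ± 0.0141 in MDA-MB-231, and 40.6% ± 0.624 and 38.3% ± 1.7 in T47D. In MDA-MB-231 the sums with the 2 peptides differed by less than their spread, while S100A4 held 8.82% ± 0.518 with GFOGER and 11.8% ± 0.424 with IKVAV. These shares are of reads and favour longer transcripts.

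**Figure D2:**
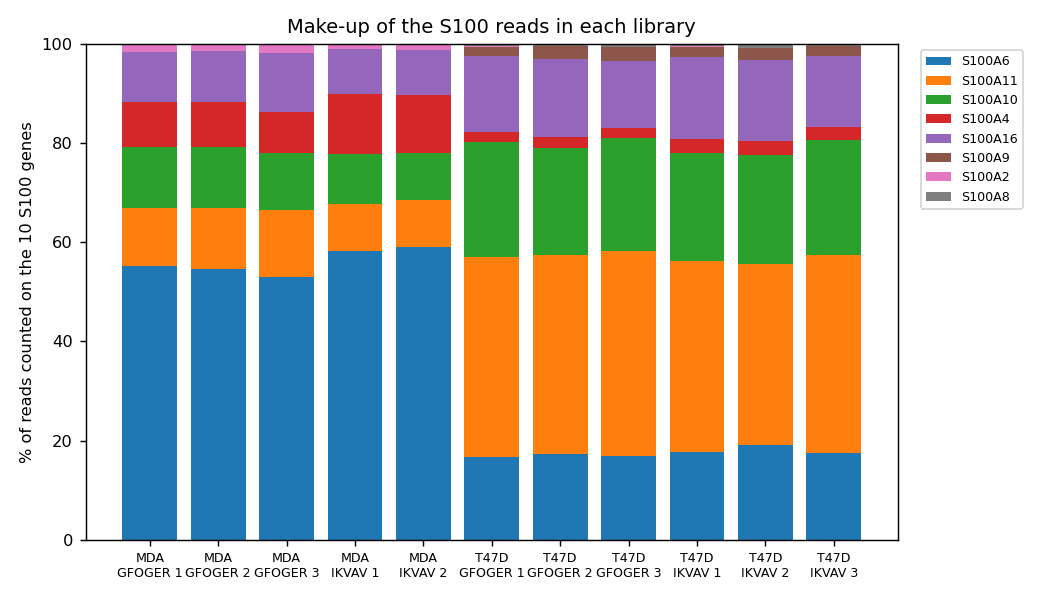
Share of the reads counted on the 10 S100 genes that each of the 8 best counted members took, in percent, with 1 bar for each of 11 libraries (MDA stands for MDA-MB-231; S100A7 and S100A14 are too few to be drawn). S100A6 makes up 52.9% to 59.0% of the bar in MDA-MB-231 libraries and S100A11 makes up 36.5% to 41.3% in T47D libraries.

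The cell lines were then compared with the mimics averaged. Of the 9 members that passed the filter on low counts (all but S100A7), 5 were called, at an adjusted p under 0.05 and a change over 2-fold. S100A2, S100A4 and S100A6 were higher in MDA-MB-231, and S100A8 and S100A9 were higher in T47D. Of all 15320 genes tested, 46.3% were called (23.7% higher and 22.6% lower in MDA-MB-231), so the share of members is near the background. At any fold, 8 of 9 members passed the adjusted p, against 84.5% of all genes. The median absolute log2 difference was 3.03 over the 9 members and 0.903 over all genes tested. These medians are not a like comparison. S100A2, S100A8 and S100A9 passed the filter only through the line where they were high, at log2 differences of 6.63, -7.47 and -8.67. S100A4 and S100A6 differed by 3.42 and 3.03, while S100A10, S100A11, S100A14 and S100A16 lay between -0.73 and 0.73. Without T47D IKVAV replicate 3 the counts of members were again 5 called and 8 past the adjusted p. In these pooled cells, fewer cells with a transcript and less of it per cell cannot be told apart.

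S100A6, the calcyclin gene and the most highly expressed member in MDA-MB-231, was at 1448, 1452 and 1334 cpm in the GFOGER libraries of that line and 1488 and 1486 cpm in the IKVAV libraries. In T47D it was at 173, 181 and 178 cpm with GFOGER and 165, 178 and 186 cpm with IKVAV. Every MDA-MB-231 library exceeded every T47D library, by 3.03 ± 0.0554 on the log2 scale (estimate ± SE, 8.19-fold, edgeR quasi-likelihood test, adjusted p = 9.99e-21).

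S100A4, the myosin-binding member, was at 240.3, 241 and 207 cpm with GFOGER and 310.1 and 289.9 cpm with IKVAV in MDA-MB-231. T47D libraries held 21.2, 23.6 and 21.0 cpm with GFOGER and 26.9, 25.7 and 28.9 cpm with IKVAV. The groups of the lines did not overlap, and the difference was 3.42 ± 0.069 (10.7-fold, edgeR, adjusted p = 4.33e-20). Within a single peptide the log2 difference between lines was 3.39 for GFOGER and 3.46 for IKVAV.

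S100A2, an epithelial member that is often lost in breast tumors, was at 40.0, 38.2 and 44.6 cpm with GFOGER and 25.2 and 28.3 cpm with IKVAV in MDA-MB-231. T47D libraries held 3 to 11 reads each, or 0.183 to 0.658 cpm. Summed over libraries this was 2960 reads against 33, a ratio of 101 per gene read (95% exact interval 71.6 to 147, counting error only), and the edgeR estimate was 6.63 ± 0.169 (adjusted p = 1.93e-18).

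The calprotectin genes ran the other way. S100A8 was counted at 0 in 4 of the 5 MDA-MB-231 libraries and at 3 in IKVAV replicate 1, while T47D libraries held 69, 75 and 102 reads with GFOGER (4.13, 4.47 and 5.81 cpm) and 54, 118 and 68 reads with IKVAV (3.66, 7.2 and 4.04 cpm). The summed ratio of T47D to MDA-MB-231 was 144, with a 95% exact interval of 49.0 to 701 (edgeR, adjusted p = 1.49e-10). S100A9 was at 0 to 3 reads in MDA-MB-231 libraries. In T47D it was at 20.2, 26.1 and 28.9 cpm with GFOGER and at 20.3, 23.1 and 22.5 cpm with IKVAV. The sums were 5 and 2340 reads, a ratio of 416 (178 to 1283) in favour of T47D, and the edgeR adjusted p was 8.95e-17.

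Both genes were thus measured well above the floor in T47D and at or near 0 in MDA-MB-231. Per kilobase, S100A9 exceeded S100A8 in every T47D library, by 4.75 ± 0.483 times (SD, n = 3) with GFOGER and 4.32 ± 1.22 times (n = 3) with IKVAV. Leukocyte markers, which would mark neutrophils or monocytes, summed to 3.8 to 6.16 cpm over 9 genes in T47D and 32.5 to 41.6 cpm in MDA-MB-231, so the summed list was lower in the line with the calprotectin genes. ITGB2 (14.4 to 24.6 against 0.513 to 1.43 cpm), CD14 (8.0 to 11.3 against 0.0595 to 0.475 cpm) and CSF1R (3.15 to 5.47 against 0 to 0.271 cpm) were called higher in MDA-MB-231. ITGAM, an integrin of neutrophils and monocytes, ran the other way, with 28 to 65 reads in T47D libraries and 1 to 6 in MDA-MB-231. FCGR3B (a neutrophil Fc receptor) and CD3E (a T cell receptor subunit) had 0 reads in every MDA-MB-231 library and at most 1 in any T47D library. The part of such cells in the calprotectin values was not tested. Keratinocyte markers summed to 40.2 to 46.5 cpm over 7 genes in T47D and 18.6 to 28.1 cpm in MDA-MB-231, with KRT1 and LOR at 0 in both lines. Within this list IVL (involucrin) was at 20.2 to 23.5 cpm in T47D and 0 to 0.057 cpm in MDA-MB-231, while KRT10 overlapped between lines at 14.9 to 19.5 and 15.2 to 26.8 cpm.

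S100A16, S100A10 and S100A11 differed less. S100A16 was at 265, 271 and 302 cpm with GFOGER and 233 and 233 cpm with IKVAV in MDA-MB-231, and at 144 to 165 cpm in the 6 T47D libraries. The lines did not overlap, and S100A16 was higher in MDA-MB-231 by 0.73 ± 0.0578 on the log2 scale (1.66-fold, edgeR, adjusted p = 3.03e-10), which is past the adjusted p but under 2-fold.

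S100A11 was higher in T47D by 1.41-fold, a log2 difference of -0.50 ± 0.062 (edgeR, adjusted p = 3.14e-07). Its T47D libraries lay at 420.1, 419 and 435 cpm with GFOGER and 357, 339.8 and 425 cpm with IKVAV, and its MDA-MB-231 libraries at 312, 326 and 343 cpm with GFOGER and 246 and 242 cpm with IKVAV. The top MDA-MB-231 library with GFOGER exceeded the lowest T47D library with IKVAV.

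S100A10 was higher in MDA-MB-231 by 1.23-fold, a log2 difference of 0.30 ± 0.0639 (edgeR, adjusted p = 0.000246), and its libraries overlapped between lines. With GFOGER alone the log2 difference was 0.41 (adjusted p = 0.000183), and with IKVAV alone it was 0.18 and did not pass the test (adjusted p = 0.0914).

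S100A7 (psoriasin) and S100A14 could not be placed. S100A7 had 0 reads in every MDA-MB-231 library, which allows up to 0.163 to 0.191 cpm, and 2, 0, 1, 1, 0 and 0 reads in the T47D libraries. S100A14 had 1 to 6 reads in MDA-MB-231 and 2 to 11 in T47D libraries, and its log2 difference of -0.73 had an approximate 95% interval of -1.86 to 0.39 (edgeR, adjusted p = 0.239). With voom and quality weights S100A14 passed (-1.09, adjusted p = 0.0455), and it did not pass under the other alternatives that were run. S100A7 was not tested.

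**Figure D3:**
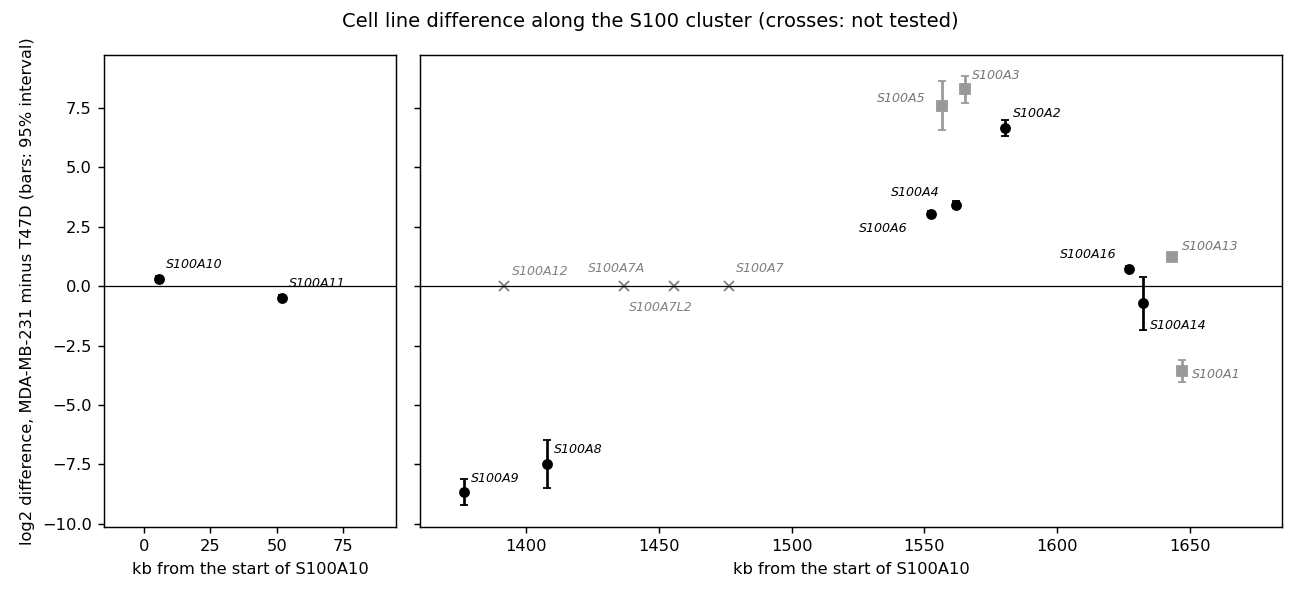
Log2 difference of MDA-MB-231 minus T47D (points, with bars of the approximate 95% interval) against the distance of each S100 gene of chromosome 1 from the start of S100A10, in kb; the axis is broken between S100A11 and S100A9, black circles are members, grey squares are other S100 genes and crosses, the member S100A7 among them, were not tested. S100A9 (-8.67) and S100A8 (-7.47) lie lowest, and S100A6 (3.03), S100A4 (3.42) and S100A2 (6.63) lie above 0 together with their neighbours S100A5 and S100A3, whose bars depend on a few T47D reads.

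Neighbours in the cluster pointed the same way in one stretch and opposite ways in others. From S100A6 to S100A2, all 5 S100 genes of that stretch, which includes the non-members S100A5 and S100A3, were higher in MDA-MB-231. In the GENCODE annotation a longer span of S100A4 covers S100A3 on the same strand. Whether reads of S100A3 came from longer S100A4 transcripts was not tested. S100A3 had 1441 reads in MDA-MB-231 and 6 in T47D (ratio 270, 95% exact interval 124 to 737), and S100A5 had 244 reads and 1 read (ratio 274, 48.8 to 10878). S100A11 and S100A10, next to each other at the far end, had differences of opposite sign. Beyond S100A2, S100A16 and S100A13 were higher in MDA-MB-231 and S100A1 was higher in T47D. S100A1 and S100A13 overlap on opposite strands, and whether the counting used the strand is not given, so their split is uncertain. Of the 6 tested genes among the 51 between the outermost members, 5 were called, and they pointed both ways. IVL (involucrin, of the cornified envelope) had 1 read in MDA-MB-231 and 2161 in T47D, a ratio of 1922 in favour of T47D (95% exact interval 345 to 75963), while FLG (filaggrin), nearby, had 3663 reads in MDA-MB-231 and 7 in T47D, a ratio of 588 (285 to 1464). Over all genes 46.3% were called. The 5 called genes between the outermost members each passed the filter only through the line where they were high, so these shares are not a like comparison. No test of position was made.

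In MDA-MB-231 cells the peptide moved 5 of the 6 tested members past the adjusted p, with none past 2-fold. S100A2, S100A11, S100A10 and S100A16 were higher with the collagen mimic GFOGER and S100A4 was higher with the laminin mimic IKVAV. The remaining 4 members did not pass the filter in this line. Among all 14092 genes tested, 42.9% passed the adjusted p (21.4% in each direction) and 9.57% were called, so 5 of 6 past the adjusted p and 0 of 6 called are read against those shares. The median absolute log2 change was 0.362 over the 6 members and 0.337 over all genes.

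S100A2 changed most. Its 3 GFOGER libraries, at 38.2 to 44.6 cpm, all exceeded its 2 IKVAV libraries at 25.2 and 28.3 cpm, a log2 change of 0.60 ± 0.125 (1.52-fold, edgeR, adjusted p = 0.00102). S100A11, the annexin A1 partner, was at 312 to 343 cpm with GFOGER and 242 and 246 cpm with IKVAV, a change of 0.41 ± 0.0858 (1.33-fold, adjusted p = 0.001). Both passed the adjusted p under all 15 alternatives that were run, at adjusted p from 4.33e-07 to 0.0375 for S100A2 and from 4.91e-17 to 0.036 for S100A11.

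S100A10, the annexin A2 partner, lay at 321, 328 and 289 cpm with GFOGER and at 255 and 239.9 cpm with IKVAV, a change of 0.33 ± 0.0914 (1.26-fold, adjusted p = 0.00785). S100A16 rose by 0.25 ± 0.0887 (1.19-fold, adjusted p = 0.0291), and S100A4 fell by 0.39 on the log2 scale (SE 0.0942, 1.31-fold, adjusted p = 0.00307). All GFOGER libraries of these genes stood on one side of all IKVAV libraries, as they did for 63.2% of all genes. S100A4 and S100A10 missed the threshold without IKVAV replicate 1 (adjusted p = 0.0798 and 0.0565), S100A10 also missed it without IKVAV replicate 2 (adjusted p = 0.137), and S100A16 missed it without either (adjusted p = 0.179 and 0.18) and without GFOGER replicate 1 (adjusted p = 0.0528). With the set of RPKM totals as a term all 3 missed it. In this line the lower set holds IKVAV replicate 1 alone, so that fit compares GFOGER with IKVAV replicate 2 only. It is therefore not a check apart from leaving out replicate 1. S100A16 also missed the threshold with upper-quartile normalization (edgeR, adjusted p = 0.0537). The number of members past the adjusted p was 2 without IKVAV replicate 1, 3 without IKVAV replicate 2 and 2 with the set as a term.

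S100A6, at the top of the list by level, had a log2 change of -0.08 ± 0.0763, with an approximate 95% interval of -0.23 to 0.07, and did not pass the test (edgeR, adjusted p = 0.408). Its 3 GFOGER libraries all lay under the 2 IKVAV libraries, in a comparison where 63.2% of all genes had no overlap.

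**Figure D4:**
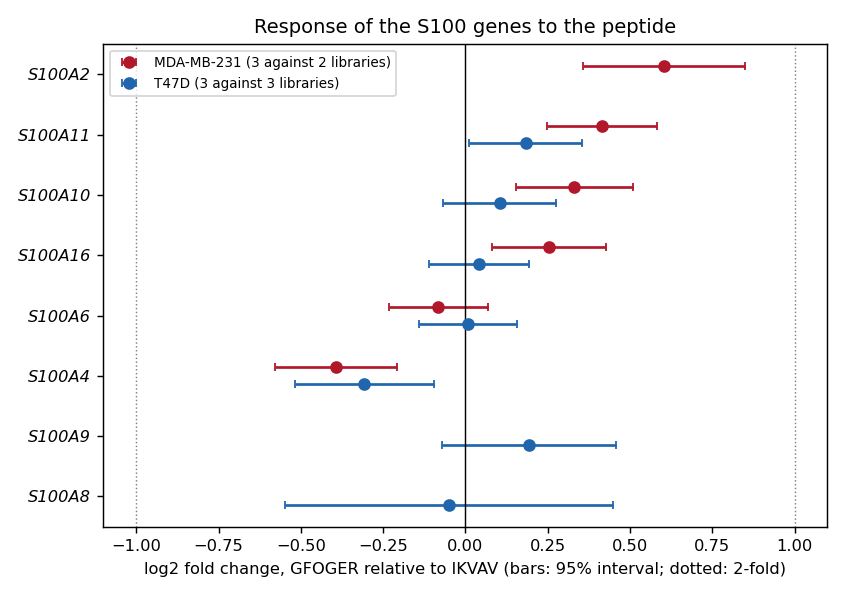
Log2 fold change of GFOGER relative to IKVAV for each tested S100 gene in MDA-MB-231 (red) and T47D (blue), with bars of the approximate 95% interval and dotted lines at 2-fold. In MDA-MB-231, S100A2 (0.60), S100A11 (0.41), S100A10 (0.33) and S100A16 (0.25) lie above 0 and S100A4 (-0.39) lies below, and no gene reaches 2-fold in either line.

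In T47D cells none of the 7 tested members (S100A4, S100A6, S100A8, S100A9, S100A10, S100A11 and S100A16) passed the adjusted p, in a comparison where 0.044% of 13642 genes did by the edgeR quasi-likelihood test and 0.022% were called. At an unadjusted p under 0.05, 1 of 7 members and 11.2% of all genes passed. DESeq2 called 8 genes and voom with quality weights 146, none of them a member, and at any fold voom with quality weights had 2 members past the adjusted p, S100A4 (0.041) and S100A11 (0.0134).

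S100A4 came nearest. It stood at 21.2, 23.6 and 21.0 cpm with GFOGER and 26.9, 25.7 and 28.9 cpm with IKVAV, so the groups did not overlap (as for 16% of all genes), and its log2 change was -0.31 ± 0.108 (unadjusted p = 0.013, edgeR adjusted p = 0.327). The approximate 95% interval was -0.52 to -0.10. In both lines S100A4 thus had its lower values with GFOGER, though the T47D change did not pass the test.

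S100A11 and S100A10 were split by one library. S100A11 was at 419 to 435 cpm in the 3 GFOGER libraries and at 357 and 339.8 cpm in IKVAV replicates 1 and 2, but at 425 cpm in IKVAV replicate 3. S100A10 was at 224 to 241 cpm with GFOGER, 203 and 204 cpm in IKVAV replicates 1 and 2 and 248 cpm in IKVAV replicate 3. With all 6 libraries the log2 changes were 0.18 ± 0.0871 (adjusted p = 0.457) and 0.10 ± 0.0875 (adjusted p = 0.70). Without IKVAV replicate 3 they were 0.28 for S100A11, which then passed the test (adjusted p = 0.0172), and 0.20 for S100A10, which did not (adjusted p = 0.0993). That library did not move all members alike, since its S100A4 (28.9 cpm) was the highest of all T47D libraries and lay with the other IKVAV values. In the comparison without it, 1054 genes passed the adjusted p in place of 6, and 94 were called in place of 3. All GFOGER libraries are then in the lower set of RPKM totals and all IKVAV libraries in the higher set. These results without IKVAV replicate 3 therefore cannot be assigned to the peptide rather than the set.

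The other tested members did not pass the test in this line. S100A6 had a log2 change of 0.01 (approximate 95% interval -0.14 to 0.16), S100A16 of 0.04 (-0.11 to 0.19), S100A9 of 0.19 (-0.07 to 0.46) and S100A8 of -0.05 (-0.55 to 0.45), at edgeR adjusted p of 0.985, 0.892, 0.625 and 0.966. S100A8, with 54 to 118 reads a library, has the widest interval. Without IKVAV replicate 3 these 4 did not pass the test either. S100A2, S100A7 and S100A14 were too low to be tested in T47D.

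**Figure D5:**
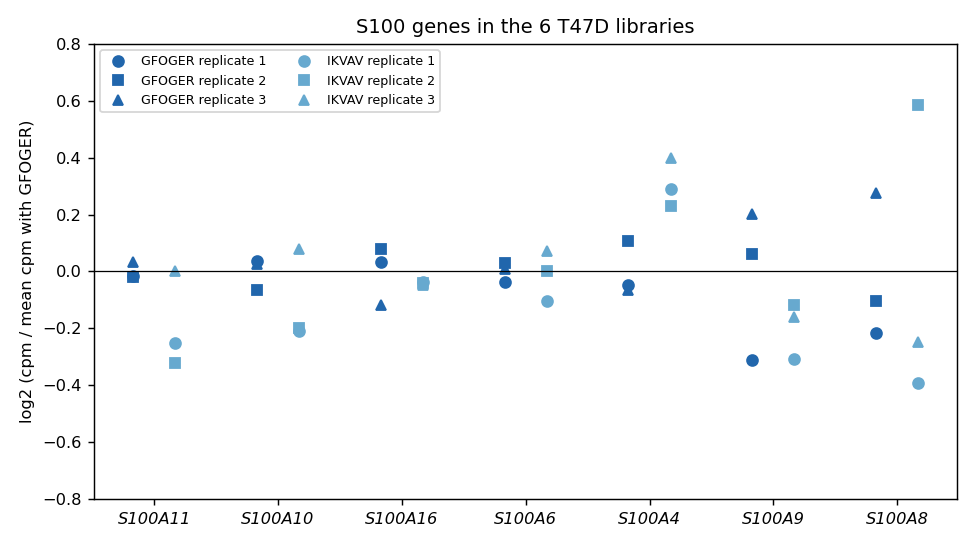
Log2 ratio of cpm to the mean of the 3 GFOGER libraries, for the 7 S100 genes tested in T47D, with dark symbols for GFOGER, light symbols for IKVAV and the shape giving the replicate. The light triangle (IKVAV replicate 3) lies among the GFOGER points for S100A11 and above them for S100A10, but with the other IKVAV points for S100A4.

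Whether the response differed between the lines was tested as the interaction of line and peptide over all 4 conditions. None of the 9 members passed the adjusted p by edgeR's quasi-likelihood test, against 21.0% of 15320 genes (6.42% called), and none had an unadjusted p under 0.05, against 33.8%. The difference of the log2 changes (MDA-MB-231 minus T47D) was 0.24 ± 0.123 for S100A11, 0.23 ± 0.128 for S100A10 and 0.22 ± 0.116 for S100A16, at adjusted p of 0.178, 0.209 and 0.19. For S100A4 it was -0.08 (approximate 95% interval -0.34 to 0.19) and for S100A6 it was -0.08 (-0.29 to 0.13). S100A2, S100A8, S100A9 and S100A14 rest on a few reads in one of the lines, and their standard errors of 0.610 to 1.95 leave the question without an answer. With the set of RPKM totals as a term, S100A10 (0.46, adjusted p = 0.0353) and S100A11 (0.44, adjusted p = 0.0399) passed. The larger responses of MDA-MB-231 for these genes were therefore not shown to differ from those of T47D by the main test.

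Among the 11 other S100 genes, 5 were tested between lines and all 5 were called, in a comparison where 46.3% of all genes were. These shares are not a like comparison, since S100A3 and S100A5 passed the filter only through MDA-MB-231, where they were high. Besides S100A3, S100A5 and S100A13 (log2 difference 1.23 ± 0.09, adjusted p = 8.96e-11), which were higher in MDA-MB-231, S100P and S100A1 were higher in T47D, at -4.20 ± 0.222 and -3.58 ± 0.243 on the same scale (edgeR, adjusted p = 3.92e-13 and 2.51e-11). S100P, a secreted ligand of RAGE found in many carcinomas, is encoded outside the cluster on chromosome 4. In MDA-MB-231 it was at 0.399 to 0.865 cpm with GFOGER (7 to 14 reads) and 2.05 and 3.5 cpm with IKVAV (34 and 54 reads), a log2 change of -2.09 ± 0.415 (adjusted p = 0.00072) and S100P was the only tested S100 gene called for the peptide in either line. S100A13 passed at 1.24-fold (-0.31 ± 0.115, adjusted p = 0.0368), and S100A1, S100A3 and S100A5 did not. S100A12, S100A7A, S100A7L2, S100B, S100G and S100Z had at most 5 reads in any library.

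The annexins include the membrane-binding partners of S100A10 and S100A11. Of 11 tested for the peptide in MDA-MB-231, 7 rose and 2 fell at the adjusted p, and 2 rose and 1 fell past 2-fold, with a median log2 change of 0.60. Of all genes tested there, 42.9% passed the adjusted p and 9.57% were called. ANXA2 was at 387, 385 and 356 cpm with GFOGER and 248 and 245 cpm with IKVAV, a change of 0.60 ± 0.0871 (edgeR, adjusted p = 4.41e-05), and ANXA1 changed by 0.74 ± 0.117 (adjusted p = 9.74e-05). ANXA3 rose by 2.08 ± 0.12 and ANXA9 changed by -1.46 ± 0.187 (adjusted p = 1.57e-09 and 1.28e-05). ANXA8L2 was also called (1.80 ± 0.454, adjusted p = 0.0044), but it has near-identical copies among which reads may be split. In T47D none of the 9 tested annexins passed (edgeR; ANXA2 at -0.25 ± 0.0773, adjusted p = 0.281).

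Set beside its partner, S100A10 had more counted reads per kilobase than ANXA2 in every library. Reads that match more than 1 place in the genome were not examined for either gene, so the ratio is one of counted reads. The ratio was 1.43 ± 0.03 (SD, n = 3) and 1.72 ± 0.0566 (n = 2) in MDA-MB-231 with GFOGER and IKVAV, and 2.25 ± 0.0265 (n = 3) and 1.76 ± 0.121 (n = 3) in T47D. The ratio of S100A11 to ANXA1 spanned far more, 1.33 to 1.96 in MDA-MB-231 and 268 to 1104 in T47D, where ANXA1 had 15 to 63 reads a library. Between lines ANXA1 was higher in MDA-MB-231 by 7.62 ± 0.125 (adjusted p = 1.97e-21) while S100A11 was lower.

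Genes of plasminogen activation, the process that the S100A10 and annexin A2 complex serves at the cell surface, were tested for 6 of 7 genes in MDA-MB-231. Past 2-fold, 4 rose with GFOGER and none fell, where 9.57% of all genes were called. They included SERPINB2 (plasminogen activator inhibitor 2, 3.10 ± 0.31), PLAU (urokinase, 1.72 ± 0.0978) and PLAT (tissue plasminogen activator, 1.11 ± 0.0932), at edgeR adjusted p of 8.63e-07, 1.31e-09 and 1.12e-07. The list holds activators and their inhibitors alike. Between lines, where 46.3% of all genes were called, all 6 were higher in MDA-MB-231, among them PLAT at 308 to 782 cpm against 0.655 to 1.65 cpm and PLAU at 159.7 to 622 cpm against 0.671 to 1.07 cpm. SERPINB2 passed the filter between lines only through MDA-MB-231. In T47D none of 4 tested genes passed. PLG, plasminogen itself, had 0 reads in every library.

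The receptors that bind extracellular S100 proteins were tested for 8 of 9 genes between lines, where 4 were called higher and 1 lower in MDA-MB-231, against 46.3% of all genes called in either direction. TLR4 had 9028 reads in MDA-MB-231 and 9 in T47D, a ratio of 1128 (95% exact interval 594 to 2467), so the line with the calprotectin transcripts had next to none of this receptor's. AGER was low in both lines (3.21 to 4.5 and 2.16 to 4.14 cpm) and did not pass (adjusted p = 0.0909). BSG (basigin) was higher in MDA-MB-231 by 2.01-fold (adjusted p = 3.09e-11), MCAM was at 60.2 to 124 against 6.83 to 11.3 cpm (adjusted p = 2.85e-17), and CD36 was lower, at 0.057 to 0.324 against 7.36 to 12.9 cpm (adjusted p = 6.85e-14). For the peptide in MDA-MB-231, 3 of 7 rose and 2 fell at the adjusted p, which 42.9% of all genes passed, with none past 2-fold, BSG changing by -0.57 ± 0.0941 (adjusted p = 0.000146). In T47D none of 7 passed.

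Of 18 intracellular partners, 17 were tested between lines, where 1 was called higher and 4 lower in MDA-MB-231, against 46.3% of all genes called. MYH9, the myosin bound by S100A4, was the one called higher (1.55 ± 0.0754, adjusted p = 9.97e-14). TRPV6, a calcium channel bound by S100A10 with annexin A2, was lower in MDA-MB-231, at 0.0603 to 0.114 against 97.2 to 118 cpm, as was MYH14 (another non-muscle myosin) at 0 to 0.494 against 42.8 to 66.1 cpm. MDM2, the ligase that degrades p53, had a log2 difference of -1.81 ± 0.0714, and AHNAK, a scaffold that binds the S100A10 complex, one of -0.76 ± 0.0637, which is under 2-fold. With the peptide in MDA-MB-231, 5 of 14 rose and 1 fell at the adjusted p, none past 2-fold, so the share past the adjusted p was that of all genes (42.9%). CACYBP, the partner of S100A6, was among those that rose (0.69 ± 0.107, adjusted p = 8.34e-05), while MYH9 at 0.01 ± 0.0972 and AHNAK at -0.04 ± 0.0736 did not pass. In T47D none of 17 passed.

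Other EF-hand calcium sensors of the calmodulin type served as a family of similar function outside the cluster. Of 17 tested between lines, 4 were called higher in MDA-MB-231 and 1 lower, against 46.3% of all genes called. They were led by RCN3 (4.17 ± 0.214), CAPN2 (2.29 ± 0.0743) and CALU (2.06 ± 0.0602). The median absolute log2 difference of the tested sensors was 0.644, against 0.903 over all genes tested. For the peptide in MDA-MB-231, 4 of 17 rose and 1 fell at the adjusted p, which 42.9% of all genes passed, with none past 2-fold. In T47D none of 16 tested sensors passed, as for the S100 members. Of the 30 cornified envelope and fused S100 genes of the cluster, 4 were tested between lines, and 1 of 3 tested rose with GFOGER in MDA-MB-231 at the adjusted p.

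The genes most like each member over the 11 libraries were found by Pearson's r of log2 cpm among 15320 genes, as a description, since the points share a large difference between lines. For S100A2 they were COL8A1 (r = 0.9991), AKR1C1 (0.9989) and OSR1 (0.998). For S100A4 they were DUSP6 (0.999), PARVA (0.9988) and CXCL11 (0.9978), and for S100A6 CDCA7, NCOA7 and GPR116 (each 0.9993). S100A8 was most like SCNN1G (0.9966), PCDP1 (0.9963) and DNAJC5B (0.9962), and S100A9 most like COG4 (0.9989), LAD1 (0.9985) and ARL11 (0.9981). The members with a small difference between lines had other neighbours, BUB3 (0.9815), NDUFA12 (0.98) and COPS3 (0.9797) for S100A10, CHAF1B (0.9883), HNRNPAB (0.9836) and TRAF3IP2 (0.9833) for S100A11, and MRPL2 (0.9961), ABCF1 and PHB2 (each 0.9949) for S100A16. For S100A14, with few reads, the highest r was 0.8296, for HSPB6.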

How the data were processed

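RNA was measured in 11 libraries by stranded poly(A) RNA-seq. Per the labels, the submitters' processing notes name FastQC, Trim Galore 0.4.4, TopHat2 2.1.0, bedtools 2.17, SAMtools 1.4, HTSeq 0.6.1p1, edgeR 3.16.5 and hg19; the gene annotation and the strand option are not given in the sources used here. The authors deposited raw counts per gene together with RPKM values, which were used only to derive the library totals they imply. Of 24656 entries, 1288 repeated a symbol and were left out, keeping the entry with the most reads, a rule set after a first run; no member is repeated.

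Counts were normalized by TMM and tested with edgeR 4.0.16 (quasi-likelihood, R 4.3.3; limma 3.58.1 and DESeq2 1.42.0 for alternatives) after the default low-count filter (minimum count 10, total 15), with Benjamini-Hochberg adjustment over all genes tested. GFOGER was compared with IKVAV within each line, and lines and the interaction over all 4 conditions. A gene was called at an adjusted p under 0.05 and over 2-fold. Intervals of log2 changes are 1.96 SE to either side; count intervals and floors cover counting error only. On simulated counts with 200 changed genes the tests recovered 198 in MDA-MB-231 (13930 genes), 199 in T47D (13532), 200 between lines (14865) and 191 for the interaction (14872). All planted changes were over 2-fold, with a single spread for all genes. Recovery of changes under 2-fold, the size of the members' peptide changes, was not examined. The alternatives were other normalizations, filters and tools, a replicate block, the set of RPKM totals as a term, a threshold inside the test, a joint fit, single peptides and leaving out each library. Members and gene lists were chosen with earlier results of these data known. Named were all 10 members, other S100 genes where called, 8 partners and receptors, 3 markers of identity, at most the 3 called genes of each other list and comparison with the largest change, if their mean log2 cpm reached 1 (not all are printed, and 1 is not reported here), and the 3 genes most like each member. FCGR3B, CD3E, ITGAM, KRT1, KRT10, LOR and PLG lie outside this rule and were named after their values were seen. Promoters and start sites came from RefSeq, matched to GRCh37. Same-numbered replicates did not deviate together (correlations -0.184 to 0.0429), so replicate numbers were not treated as pairs.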

Additional observations from a re-analysis of the deposited data

Results flagged for a closer look

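No S100 member had a response to the peptide that differed between the lines by the interaction test. With 2 or 3 libraries in a condition, no test for a single outlying value within a condition was run. The genes below are a relative and partners of the members whose log2 change with GFOGER differed between MDA-MB-231 and T47D (MDA-MB-231 minus T47D, edgeR's quasi-likelihood interaction test).

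S100P differed by -2.39 ± 0.487 (adjusted p = 0.00188), from -2.09 in MDA-MB-231, where it had 7 to 54 reads a library, and 0.30 in T47D, where it was at 25.6 to 28.3 cpm with GFOGER and 15.6 to 32.5 cpm with IKVAV. The highest of the T47D values was IKVAV replicate 3, and without that library the T47D change of S100P was 0.69 (edgeR, adjusted p = 0.000843). In that fit the peptide and the set of RPKM totals cannot be told apart.

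ANXA1 differed by 1.88 ± 0.293 (adjusted p = 0.00016), from 0.74 in MDA-MB-231 and -1.13 in T47D, where it had 15 to 63 reads a library. ANXA2, the partner of S100A10, differed by 0.86 ± 0.113 (adjusted p = 2.97e-05), from 0.60 and -0.25, and its libraries did not overlap between peptides in either line. CACYBP differed by 0.62 ± 0.146 (adjusted p = 0.00516), from 0.69 and 0.08. BSG differed by -0.63 ± 0.139 (adjusted p = 0.00314), from -0.57 and 0.07. AHNAK differed by 0.38 ± 0.126 (adjusted p = 0.0371), from -0.04 and -0.41, and missed the threshold under several alternatives, for example without T47D GFOGER replicate 1 (0.26, adjusted p = 0.134).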

How the results depend on the processing

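In MDA-MB-231, 80 of the 90 log2 changes of members over the alternatives kept direction and side of the threshold and 10 no longer passed; with the set of RPKM totals as a term 2 members passed in place of 5, and leaving out single libraries gave 2 to 5. Within a line, the fit with the set compares GFOGER with 1 IKVAV library, replicate 2 in MDA-MB-231 and replicate 3 in T47D. Its values restate those libraries and do not test the set. In T47D, 2 members passed with voom and quality weights, and 0 to 1 when single libraries were left out. The directions that turned there were S100A6 (-0.0019 with upper-quartile normalization, -0.0693 with the set as a term, -0.0365 to 0.046 leaving out a library), S100A8 (0.26 with the set, -0.22 to 0.32), S100A10 (-0.0747 with the set) and S100A16 (-0.0018 to 0.0936), and of the other genes S100P (-0.25 with the set), CACYBP (-0.0904 with the set) and BSG (-0.012 to 0.1362 leaving out a library). Between lines, 190 of 192 member values were kept. With at least 10 counts required in every library, only 5 members could be tested, of which 2 were called and 5 passed. CACYBP was at 0.0017 between lines with GFOGER alone. For the interaction 2 members passed with the set as a term; S100A2 (-0.27 with voom, -0.11 with the set, -0.27 to 0.65 leaving out a library), S100A4 (0.0586 with the set), S100A8 (-4.70 to 0.0471), S100A9 (-0.26 to 3.33) and S100A14 (-0.38 with the set, -0.75 to 1.80) turned.

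The replicate block left every count of members as it was (5 past the adjusted p in MDA-MB-231, 0 in T47D, 5 called and 8 past between lines, 0 for the interaction), while it gave 38 in place of 6 genes past the adjusted p and 5 in place of 3 called in T47D; same-numbered samples share only a number. Over all genes, T47D calls ranged from 0 with the threshold inside the test to 5 in a joint fit, 8 with DESeq2, 20 without a filter, 49 with the set and 146 with voom, with 0 to 94 leaving out a library, and genes past the adjusted p from 11 with DESeq2's size factors to 32 in a joint fit, 78 with DESeq2, 121 without a filter, 345 with the set and 1508 with voom, with 1 to 1054 leaving out a library. In MDA-MB-231, 3898 passed with the set against 6040, 3444 without IKVAV replicate 2, and 403 were called with the threshold inside the test against 1349. Between lines 4091 were called with 10 counts in every library against 7092, and for the interaction 132 against 983 with the threshold inside the test and 5188 past with voom against 3222, or 1823 without MDA-MB-231 IKVAV replicate 2. Within a line, the counts with the set rest on 1 IKVAV library. In the T47D fit with 94 called and 1054 past, peptide and set fall together and cannot be told apart. The cause of these changes was not tested.

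Depth limits S100A7 and S100A14 in both lines, S100A8 and S100A9 in MDA-MB-231 and S100A2 in T47D. The MDA-MB-231 comparison rests on 2 IKVAV libraries, and each subtype on 1 line.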
